A study of Rattus norvegicus with 24 samples.

Results

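Adrb1 (ENSRNOG00000017002), which encodes the beta-1 adrenergic receptor, and Avpr1a (ENSRNOG00000004400), which encodes the V1a vasopressin receptor, were followed across carotid bodies (CBs) of hypertensive and normotensive rats. They are 2 of the 32623 genes in the deposited count table, taken by pairing their symbols with the identifiers of the study's own expression table. Both carried more transcript in the CBs of spontaneously hypertensive (SH) rats than in those of Wistar-Kyoto (WKY) rats. Mean expression over rats was 1.71-fold higher for Adrb1 and 1.52-fold higher for Avpr1a. Every SH rat lay above every WKY rat for both, which held for 502 of the 14243 genes tested (3.52%). Both receptors were chosen by their expression in SHR against WKY, since the part of that table read holds only genes higher in SH rats. The strain difference is therefore given as a description without a test. The comparisons of left with right CBs, which the choice did not use, found no difference that passed a test for either gene.

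The beta-1 adrenergic receptor binds noradrenaline and adrenaline, couples to Gs, and raises cyclic AMP through adenylyl cyclase. The V1a receptor binds arginine vasopressin, couples to Gq, and releases calcium from intracellular stores through phospholipase C, most familiarly in vascular smooth muscle, where it constricts vessels. The CBs lie where the common carotid arteries divide and sense blood gases through catecholamine-containing glomus cells that lie among sustentacular cells, nerve endings and a dense bed of vessels.

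Polyadenylated RNA was sequenced from the left and the right CB of 6 male WKY/NHsd and 6 male SHR/NHsd rats aged 12 to 14 weeks, with no treatment named in the labels, giving 24 libraries from 12 rats. WKY is the normotensive strain usually set against SHR, and a difference between them is a difference between strains, which cannot be told apart from a difference due to blood pressure in these groups. The libraries held 9198341 to 13655419 counts. The right CB of SH rat 34, which the study left out of its own expression table, had far less glomus cell transcript and far more thyroid and fat transcript than its left CB. It was kept apart, leaving 12 WKY and 11 SHR libraries, and its values are given at the end and wherever it changed a result. Levels are in CPM, the count relative to the library total, with totals scaled by the trimmed mean of M-values (TMM). Left and right CBs of a rat do not count as separate animals, so means and SDs of a strain are over rats, with the sides averaged first. SH rat 34 enters these means and SDs from its left CB alone. Across the 253 pairs of these libraries, counts differed by a chi-square of at least 4.97 per degree of freedom, so no pair agreed within sampling noise.

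The promoters of both receptors are shown because both carried more transcript in SH rats. The sequences are the 250 bases before the annotated start in RefSeq's GRCr8 assembly, 5′ to 3′ on the plus strand, at chr1:265776853-265777102 for Adrb1 and chr7:59999493-59999742 for Avpr1a. Capitals mark matches, on either strand, to TGACG (the core of the cyclic AMP response element), TATAAA (the TATA box) and CCAAT (the CCAAT box).
Adrb1: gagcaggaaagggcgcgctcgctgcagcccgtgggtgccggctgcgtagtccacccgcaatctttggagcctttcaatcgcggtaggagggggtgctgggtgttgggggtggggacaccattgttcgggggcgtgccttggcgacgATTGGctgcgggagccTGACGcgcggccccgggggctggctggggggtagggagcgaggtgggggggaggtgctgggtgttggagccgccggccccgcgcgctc
Avpr1a: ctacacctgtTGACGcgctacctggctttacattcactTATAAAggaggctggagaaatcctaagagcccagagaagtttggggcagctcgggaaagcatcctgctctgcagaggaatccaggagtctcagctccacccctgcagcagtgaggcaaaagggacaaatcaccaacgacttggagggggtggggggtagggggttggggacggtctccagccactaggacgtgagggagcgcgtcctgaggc
TGACG was present in both windows, 88 to 84 bases before the start in Adrb1 and 240 to 236 bases before it in Avpr1a, and in 18.2% of 33469 rat promoter windows of the same length. Adrb1 held CCAAT on the minus strand, 104 to 100 bases before the start, as did 34.02% of the windows on either strand. Avpr1a held TATAAA 212 to 207 bases before the start, a motif in 12.9% of windows. GGGCGG, the GC box, had no match in either sequence and occurred in 30.5% of windows. None of the matches overlapped. The Adrb1 window was 72.0% G or C, above 94.0% of the windows, and the Avpr1a window 58.0%, above 70.0%, with a median of 51.2% over all. These are letters in a reference genome from another strain, BN/NHsdMcwi, and the sequencing does not report on binding there.

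Adrb1 was expressed at a low level in the CBs of both strains, with 21 to 72 counts per WKY library and 42 to 85 per SHR library. In the left CBs of WKY rats 32, 33, 34, 36, 37 and 41, Adrb1 stood at 3.74, 2.24, 4.10, 3.21, 3.58 and 4.52 CPM, and in the right CBs of the same rats at 2.09, 3.17, 2.59, 4.61, 4.11 and 6.39 CPM. In the left CBs of SH rats 30, 31, 33, 34, 36 and 37 it stood at 6.90, 5.78, 6.35, 6.73, 8.78 and 6.41 CPM, and in the right CBs of rats 30, 31, 33, 36 and 37 at 4.21, 6.12, 5.90, 6.32 and 5.51 CPM. The left CBs of the strains did not overlap, whereas the right CBs did. WKY rat 41 was the highest of all right CBs, and SH rat 30 lay below WKY rat 36. The share of all genes whose left CBs lie apart was not counted. Nothing is read from this separation, since the gene was chosen by the strain difference. Over single libraries, 3 of 12 WKY libraries were above the lowest SHR library and 7 of 11 SHR libraries were below the highest WKY library. Averaged per rat, Adrb1 was 3.70 ± 0.989 CPM (SD, n = 6) in WKY (lowest 2.70, median 3.59, highest 5.46) and 6.31 ± 0.717 CPM (SD, n = 6) in SHR (lowest 5.56, median 6.04, highest 7.55). The highest WKY rat, 41, and the lowest SH rat, 30, were thus close neighbours. RNA from a whole CB cannot separate fewer cells of a type from less RNA per cell, and this holds for every level below.

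Avpr1a was read more deeply, with 98 to 214 counts per WKY library and 173 to 374 per SHR library. In the left CBs of WKY rats 32, 33, 34, 36, 37 and 41 it stood at 19.22, 20.05, 15.91, 16.73, 10.03 and 15.61 CPM, and in the right CBs at 12.21, 15.19, 15.00, 13.73, 19.65 and 18.98 CPM. In the left CBs of SH rats 30, 31, 33, 34, 36 and 37 it stood at 21.96, 23.14, 27.60, 26.71, 22.75 and 29.95 CPM, and in the right CBs of rats 30, 31, 33, 36 and 37 at 19.96, 21.32, 25.28, 18.22 and 28.94 CPM. Every left CB of SH rats was again above every left CB of WKY rats, and in the right CBs only SH rat 36 reached into the WKY range. As for Adrb1, nothing is read from the left CBs lying apart, with no share over all genes counted. Across all libraries, 4 of 12 from WKY lay above the lowest of SHR and 2 of 11 from SHR below the highest of WKY. Per rat, Avpr1a was 16.0 ± 1.15 CPM (SD, n = 6) in WKY (lowest 14.8, median 15.6, highest 17.6) and 24.4 ± 3.66 CPM (SD, n = 6) in SHR (lowest 20.5, median 24.3, highest 29.4). WKY rats were close to each other and SH rats more spread, with SH rats 36 and 30 the nearest to the WKY range. The levels of the receptors are not compared with each other, since no transcript length was used.

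**Figure D1:**
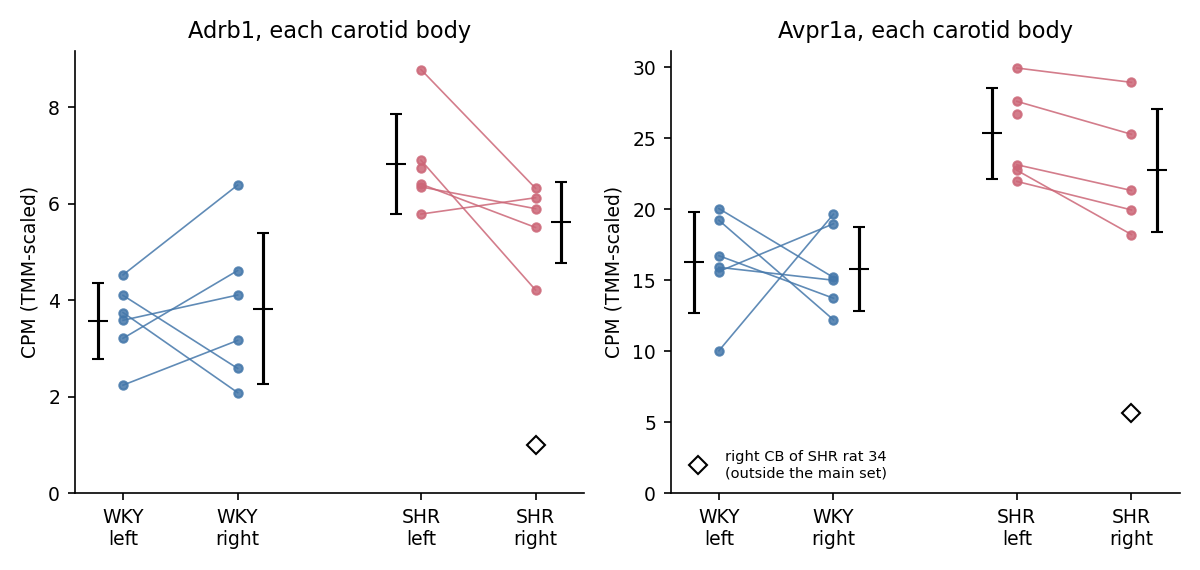
TMM-scaled CPM of Adrb1 (left panel) and Avpr1a (right panel) in each CB, by strain and side. Dots are libraries, lines join the CBs of one rat, black marks give the mean ± SD of the dots (n = 6, and n = 5 for SHR right), and the open diamond is the right CB of SH rat 34, scaled with all 24 libraries and outside those means. The left CBs of the strains do not overlap for either gene, and the right CBs do. How many of all genes keep the left CBs apart was not counted.

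Ordered by group mean, Adrb1 ran from 3.57 ± 0.790 CPM (SD, n = 6) in WKY left and 3.82 ± 1.57 (SD, n = 6) in WKY right to 5.61 ± 0.839 (SD, n = 5) in SHR right and 6.83 ± 1.03 (SD, n = 6) in SHR left. The ranges of neighbours in that order overlapped at every step. Avpr1a ran from 15.8 ± 2.94 CPM (SD, n = 6) in WKY right and 16.3 ± 3.54 (SD, n = 6) in WKY left to 22.7 ± 4.33 (SD, n = 5) in SHR right and 25.4 ± 3.20 (SD, n = 6) in SHR left, also with overlap at each step. Both receptors thus had SHR left as their highest group. WKY right was the lowest for Avpr1a and WKY left for Adrb1, each by less than the spread within the group.

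In the fit of all genes with side as a covariate, SHR minus WKY was 0.75 on the log2 scale (SE 0.158) for Adrb1, a 1.68-fold difference, and 0.59 (SE 0.103) for Avpr1a, a 1.501-fold difference. Both were among the 1470 genes called higher in SHR at an adjusted p under 0.05, which is 10.3% of the 14243 genes tested, where 2844 genes (20%) were called in either direction, and nothing is read from this, since the choice used the same contrast. That fit takes the CBs of a rat as separate libraries. With counts summed per rat, 1046 of 15086 genes (6.93%) were called higher, and with the rat as a random effect in voom 1161 of 14243 (8.15%), with differences of 0.77 and 0.79 for Adrb1 and of 0.60 in both for Avpr1a. The median over all genes tested was 0.01, and 241 genes had a larger difference than Adrb1 and 380 a larger one than Avpr1a. Every SH rat lay above every WKY rat in 502 genes, or 3.52% of those tested, with both receptors among them. Every single SHR library lay above every WKY library in 130 genes, 0.913%, with neither receptor among them.

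The strain difference was then taken on each side alone. Among left CBs, Adrb1 differed by 0.93 (SE 0.196) and Avpr1a by 0.64 (SE 0.139) on the log2 scale, and both were among the genes called higher in SHR, 4.73% of those tested. Among right CBs the values were 0.55 (SE 0.253) for Adrb1 and 0.52 (SE 0.145) for Avpr1a, and only Avpr1a was among the genes called higher, 3.0% of those tested. Whether the strain difference differs between sides was tested as an interaction, which passed for neither receptor. With the right CB of SH rat 34 added, the difference over all 24 libraries was 0.64 (SE 0.216) for Adrb1 and 0.49 (SE 0.164) for Avpr1a, and neither was among the genes called higher in that fit, 5.52% of those tested. Leaving out each rat in turn gave 0.67 to 0.89 for Adrb1, highest without WKY rat 41, and 0.50 to 0.63 for Avpr1a, lowest without SH rat 37. The direction was the same in each of the 24 alternatives run, which share rats and the contrast that chose the receptors. Nothing is read from that direction, nor from the calls on each side or over 24 libraries.

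**Figure D2:**
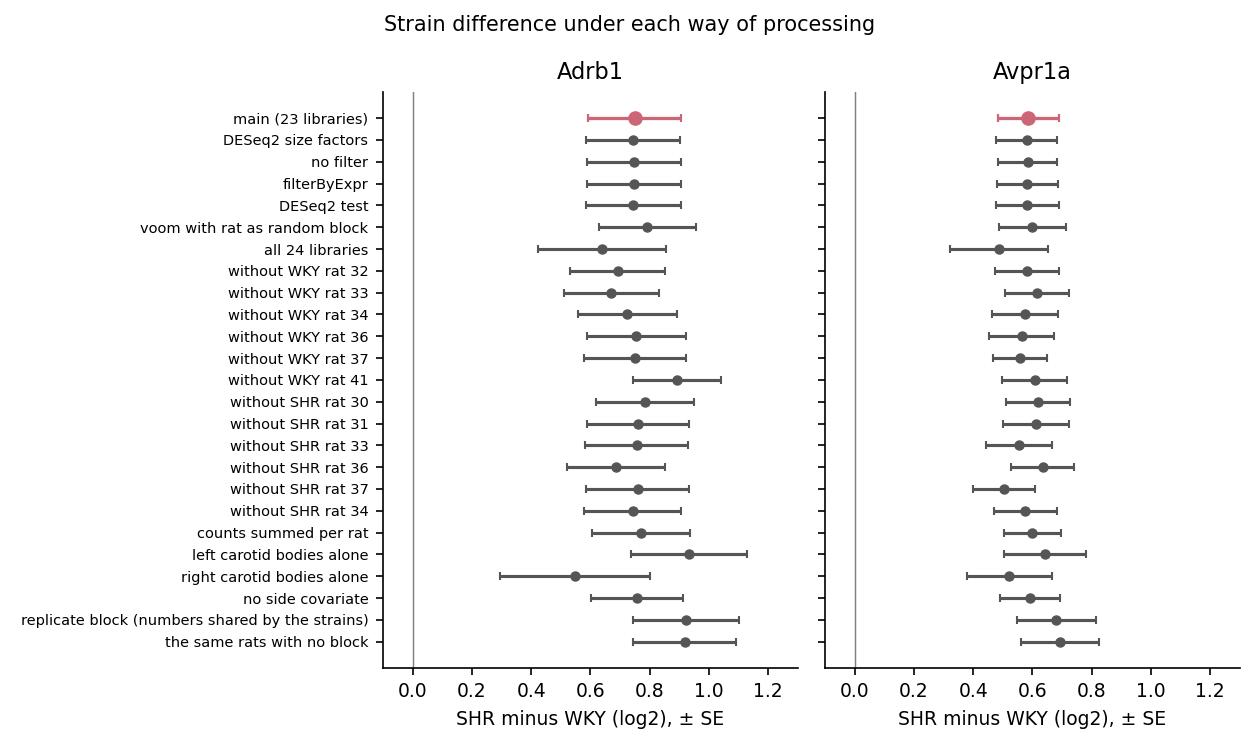
Log2 difference SHR minus WKY (x axis) of Adrb1 and Avpr1a under each alternative choice of libraries, normalization, filter, test or covariates (y axis); the voom fit also adds a rat block, and the fit with a block for shared numbers also keeps only those rats. Dots are estimates and bars ± SE, the coloured dot is the fit with 23 libraries, and every dot lies right of 0, with the widest bar for Adrb1 in the right CBs alone. The fits share rats and the contrast that chose both genes, so nothing is read from their common direction.

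Whether the CBs of the 2 sides differ is a question the study's sampling of both sides allows, and neither receptor was called. Over both strains, left minus right was 0.09 (SE 0.159) on the log2 scale for Adrb1 and 0.10 (SE 0.103) for Avpr1a, with adjusted p = 0.973 and 0.955 (edgeR, quasi-likelihood test, Benjamini-Hochberg adjustment). No gene passed among 14243 (0.0%), and 686 had an unadjusted p under 0.05. DESeq2 also called 0, with 718 at an unadjusted p under 0.05, and limma's voom, in which the rat was a random effect, 0, with 913. Within WKY, the difference was -0.10 (SE 0.261) for Adrb1 and 0.04 (SE 0.155) for Avpr1a, both with an adjusted p of 0.9998 by edgeR, and 0 of 14232 genes passed (276 at an unadjusted p under 0.05). Within SHR, it was 0.27 (SE 0.179, adjusted p = 0.869) for Adrb1 and 0.15 (SE 0.130, adjusted p = 0.883) for Avpr1a by edgeR, and 0 of 14183 genes passed (775 at an unadjusted p under 0.05). The interaction of strain and side, left minus right in SHR minus that in WKY, was 0.38 (SE 0.314, adjusted p = 0.99997 by edgeR) for Adrb1 and 0.12 (SE 0.209, adjusted p = 0.99997) for Avpr1a, and 0 genes passed, with 439 at an unadjusted p under 0.05. The right CB of SH rat 34, when added, moved these values most, with 0 genes called in each fit. Left minus right became 0.20 (SE 0.216) for Adrb1 and 0.19 (SE 0.164) for Avpr1a over both strains, and 0.49 (SE 0.316) and 0.35 (SE 0.273) within SHR. The interaction became 0.58 (SE 0.423) for Adrb1 and 0.30 (SE 0.329) for Avpr1a. The edgeR and DESeq2 fits above take the CBs of a rat as separate libraries. With the rat as a block, left minus right within SHR was 0.28 (SE 0.196) for Adrb1 and 0.15 (SE 0.105) for Avpr1a. Both had an adjusted p of 0.749 by edgeR. Within WKY it was -0.06 (SE 0.244) and 0.03 (SE 0.184), each with an adjusted p of 0.9997 by edgeR. Over both strains it was 0.11 (SE 0.155) and 0.09 (SE 0.105), with adjusted p = 0.914 and 0.886 by edgeR.

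Taken rat by rat, the sides of Adrb1 differed in both directions. In WKY rats 32, 33, 34, 36, 37 and 41, left minus right was 0.84, -0.50, 0.66, -0.52, -0.20 and -0.50 on the log2 CPM scale, and in SH rats 30, 31, 33, 36 and 37 it was 0.71, -0.08, 0.11, 0.47 and 0.22. The left CB was thus higher in 2 of 6 WKY rats and in 4 of 5 SH rats. The mean was -0.03 ± 0.63 (SD, n = 6) in WKY (p = 0.875 in a two-sided exact permutation test that flips the sign of each rat) and 0.29 ± 0.31 (SD, n = 5) in SHR (exact p = 0.125). Avpr1a differed between the sides of WKY rats 32, 33, 34, 36, 37 and 41 by 0.65, 0.40, 0.09, 0.28, -0.97 and -0.28, and between those of SH rats 30, 31, 33, 36 and 37 by 0.14, 0.12, 0.13, 0.32 and 0.05. The left CB carried more Avpr1a in all 5 SH rats, by small amounts, and in 4 of 6 WKY rats. The mean was 0.03 ± 0.58 (SD, n = 6) in WKY (exact p = 0.875) and 0.15 ± 0.10 (SD, n = 5) in SHR (exact p = 0.0625, the smallest that 5 rats allow, and 0.125 adjusted over both receptors). With 5 rats this exact test could not pass 0.05, while 6 rats allow an exact p of 0.03125. Over all 11 rats, the mean was 0.11 ± 0.51 for Adrb1 (SD, n = 11, exact p = 0.479) and 0.08 ± 0.42 for Avpr1a (SD, n = 11, exact p = 0.536), with the left CB higher in 6 and 9 rats. With SH rat 34 added, the means were 0.32 ± 0.90 (exact p = 0.247) and 0.26 ± 0.73 (exact p = 0.278) over 12 rats.

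**Figure D3:**
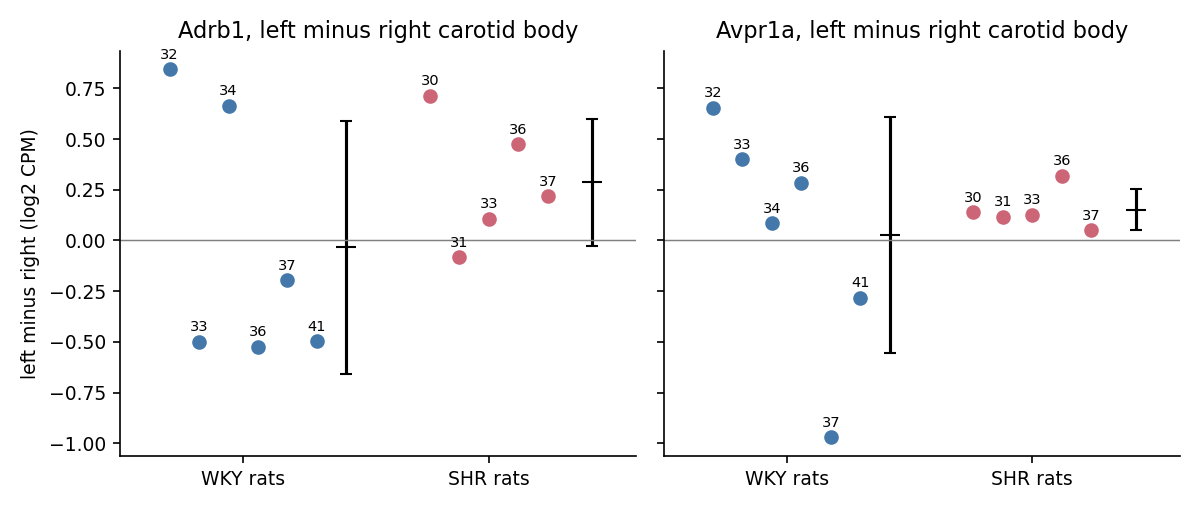
Left minus right CB in log2 CPM (y axis) for each rat with both sides in the set, numbered, for Adrb1 and Avpr1a, with black marks for the mean ± SD of 6 WKY and 5 SH rats. The WKY rats lie on both sides of 0 for both genes, and the 5 SH rats lie between 0.05 and 0.32 for Avpr1a.

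How much of the spread lay within rats differed between the receptors. For Avpr1a, differences between the sides of a rat made up 85.6% of the variance within WKY, where 54.5% would stand if the sides of a rat were no more alike than other CBs, and 15.4% within SHR, against 55.6%. WKY rats with both sides averaged were therefore close to each other (coefficient of variation 7.17%) although their single CBs ran from 10.03 to 20.05 CPM, and SH rats came in nearly the same order on the left as on the right. For Adrb1 the share within rats was 41.5% in WKY and 63.0% in SHR, with coefficients of variation over rats of 26.8% and 11.4%. These shares are descriptions over 5 or 6 rats, with no test. In the edgeR fit, the biological coefficient of variation was 23.04% for Adrb1 and 16.3% for Avpr1a, above that of 46.5% and 80.0% of the 500 genes of most similar level. Counting error adds to this for Adrb1, whose lowest library had 21 counts, with a 95% exact Poisson interval of 13.0 to 32.1 that covers counting error only.

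No relation between the receptors from rat to rat was detected within a strain. Over the 6 WKY rats, Pearson's r between the log2 CPM of Adrb1 and Avpr1a was 0.0221 (exact permutation p = 0.972) and Spearman's rho -0.371 (exact permutation p = 0.497). Over the 6 SH rats, r was -0.175 (exact permutation p = 0.739) and rho -0.0286 (exact permutation p = 1). Adjusted over the 2 strains, the lowest of these is 0.972. Without the 2 rats farthest from the median of Adrb1, r became -0.875 in WKY and 0.673 in SHR over 4 rats each, so both values rest on those rats. SH rat 36 had the highest Adrb1 and the lowest Avpr1a of its strain, and WKY rat 33 the lowest Adrb1 and the highest Avpr1a. Over the 23 libraries, after removal of the mean of each strain and side, r was 0.155, above that of 71.9% of genes with Adrb1 and of 76.2% of genes with Avpr1a. No r over both strains is given, since the strains are separate clusters.

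**Figure D4:**
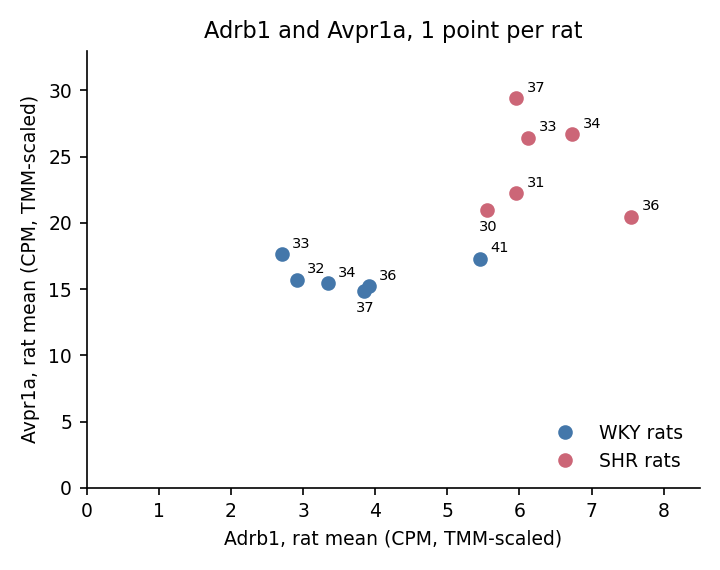
Adrb1 (x axis) against Avpr1a (y axis), in TMM-scaled CPM averaged over the sides of each rat, 1 numbered point per rat, with SH rat 34 from its left CB alone. The strains lie apart on both axes, with WKY rat 41 and SH rat 30 close on the Adrb1 axis, and within a strain the rats come in a different order on each axis.

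The other genes of these pathways could be described only in part. Only identifiers that the study's table pairs with a symbol have a name here, and the part read pairs 1273, all higher in SH rats, so that the direction of any list below was fixed by that table. Of these 1273 genes, 820 (64.4%) were called higher in SHR, against 10.3% of all genes tested, and each count of called genes below stands beside that share. Of 11 genes for making, storing and removing catecholamines, 1 had an identifier: Dbh, which converts dopamine to noradrenaline, at 23.2 ± 4.65 CPM in WKY rats against 38.5 ± 6.65 CPM in SH rats (SD over 6 rats of each strain; log2 difference 0.71, called). Of 9 adrenergic receptors, 2 had one, and beside Adrb1 this was Adra2b, the alpha-2B receptor, which couples to Gi. Adra2b was at 1.35 ± 0.651 CPM in WKY rats against 2.20 ± 0.749 CPM in SH rats (SD over 6 rats of each strain), with a log2 difference of 0.66 that was not called. Of 8 vasopressin and oxytocin peptides, receptors and related genes, Avpr1a and Avpi1, a gene first found as induced by vasopressin, had one. Avpi1 was at 14.3 ± 0.858 CPM in WKY rats against 18.0 ± 1.75 CPM in SH rats (SD over 6 rats of each strain), a log2 difference of 0.33 that was called. Vasopressin itself, the other receptors for it and the beta-2 receptor were not analysed here.

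Downstream of the receptors, 1 of 27 genes of the Gs and cyclic AMP arm had an identifier, Adcy5, an adenylyl cyclase. Adcy5 was at 65.7 ± 6.54 CPM in WKY rats against 80.7 ± 8.65 CPM in SH rats (SD over 6 rats of each strain; log2 difference 0.30, called). Of the Gq, phospholipase C and calcium arm, Camk4 and Ryr2 are described. Camk4, a calcium and calmodulin-dependent kinase, was at 2.84 ± 0.518 CPM in WKY rats against 5.80 ± 1.31 CPM in SH rats (SD over 6 rats of each strain; log2 difference 1.08, called). Ryr2, a calcium release channel, was at 89.8 ± 16.2 CPM in WKY rats against 110 ± 15.2 CPM in SH rats (SD over 6 rats of each strain; log2 difference 0.28, not called). Of 12 genes for receptor desensitization, 0 had an identifier. Each gene named from these lists had a positive difference, with Adra2b and Ryr2 alone not called, in a table that holds only genes higher in SH rats. None of those named passed between left and right (edgeR, lowest adjusted p = 0.943).

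Some genes varied with each receptor from library to library once the means of strain and side were removed. Among the 1272 named genes compared, those most like Adrb1 were H1f10, a linker histone (r = 0.695 over 23 libraries), Foxc2, a forkhead transcription factor (0.666), Gpc1, a glypican (0.664), Renbp, a renin-binding protein (0.629), and Dlx5, a homeobox factor (0.623). Those most like Avpr1a were C7, a complement component (0.695), Cd226, an immune cell adhesion receptor (0.684), the iron reductases Cybrd1 (0.670) and Steap3 (0.665), and Igfbp4, which binds insulin-like growth factors (0.647). The lists share no gene. Among all 14242 genes compared, most without a name, 2 lay above H1f10 for Adrb1 and 6 above C7 for Avpr1a. These are descriptions across libraries that share rats, picked as the highest of many, and say nothing of shared function.

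Markers of the cell types in a CB were set beside the receptors, as far as they had an identifier. They come from the same 1273 genes, 64.4% of them called higher in SHR against 10.3% of all genes tested, so nothing particular to a cell type is read from the counts of called markers. Of 16 glomus cell markers, 3 did, Dbh, Chga and Chgb, and all 3 were called higher in SHR, with a summed level of 903 to 1366 CPM in WKY libraries and 1117 to 2007 CPM in SHR libraries. After removal of strain and side means, the log2 of this sum had r = 0.134 with Adrb1 and -0.138 with Avpr1a over the 23 libraries. Of 10 smooth muscle markers, Acta2, Tagln and Cnn1 had an identifier and 0 were called, with sums of 238 to 862 CPM in WKY and 387 to 1115 CPM in SHR, and r = -0.228 with Adrb1 and 0.0646 with Avpr1a. Of 8 macrophage markers, 5 had one and all 5 were called higher, with sums of 63.3 to 120 CPM in WKY and 93.1 to 179 CPM in SHR, and r = 0.167 with Adrb1 and 0.471 with Avpr1a. Of 11 skeletal and cardiac muscle markers, Actc1, Tnnt2 and Casq1 had one, and Tnnt2 and Casq1 were called higher. These markers summed to 2.78 to 7.43 CPM in WKY and 8.64 to 14.5 CPM in SHR, with r = 0.590 with Adrb1 and 0.231 with Avpr1a. Casq1 was the largest part of that sum, with a mean of 7.53 CPM over SH rats against 1.89 for Tnnt2 and 1.32 for Actc1. The neuron marker Prph was called higher in SHR (169 to 265 CPM in WKY, 312 to 420 CPM in SHR, r = 0.461 with Adrb1 and -0.0994 with Avpr1a), as was the thyroid marker Tg (0.0973 to 10.7 CPM in WKY, 0.460 to 219 CPM in SHR, r = -0.221 and 0.0485). Only 2 of 6 SH rats lay above the highest WKY rat for Tg, against 6 of 6 for Prph. Over SH rats, Tg had a median of 4.69 CPM and a highest value of 111 CPM. The adipocyte markers Adipoq and Fabp4 and the fibroblast marker Dpt were not called, and no endothelial or sustentacular marker had an identifier. Of all single genes compared, 95% had an r below 0.407 with Adrb1 and below 0.370 with Avpr1a. The muscle sum and Prph lay above this for Adrb1 and the macrophage sum for Avpr1a, which is a description and was not tested. All markers described had passed the filter of normalized counts averaging above 10, so none could be at 0 in all libraries. The part of these cell types in the strain difference of either receptor was not tested.

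The right CB of SH rat 34 carried far less of both receptors than the left CB of the same rat. Adrb1 had 8 counts on the right and 60 on the left, or 1.01 against 6.61 CPM when all 24 libraries are scaled together, which is 15.2% of the left (95% interval from counting alone 6.294 to 32.001). Avpr1a had 45 counts on the right and 238 on the left, or 5.67 against 26.2 CPM, which is 21.6% of the left (15.4 to 29.8). Both lay well below the lowest WKY library. The median gene stood at 97.7% of the left, and 6.31% of the 12935 genes with at least 20 counts on the left had a lower ratio than Adrb1 and 7.94% a lower one than Avpr1a. In the same library the glomus cell markers summed to 61.1 CPM against 1651 CPM on the left, and the smooth muscle markers to 262 against 720 CPM. Prph was at 21.3 against 331 CPM, and the macrophage markers summed to 113 against 170 CPM. The skeletal and cardiac muscle markers summed to 16.9 against 9.69 CPM, and Dpt was at 47.7 against 19.3 CPM. Tg, the thyroglobulin gene, was at 7985 CPM against 2.42 CPM on the left, and the adipocyte markers summed to 398 against 6.61 CPM. Avpi1 was the one named pathway gene above its left value, at 150% of it, and Ryr2 had 0 counts on the right and 1080 on the left. By its glomus cell, thyroid and adipocyte markers the library goes against its CB label, and the part of any marker in the low receptor counts was not tested.

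**Figure D5:**
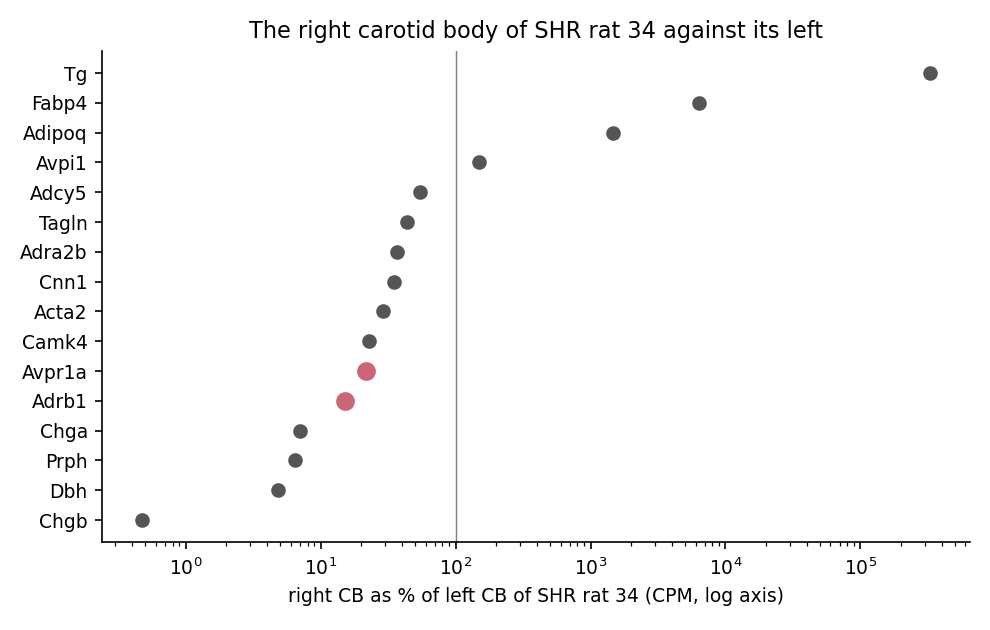
Right CB of SH rat 34 as a percent of the left CB of the same rat, on a log axis in CPM scaled over 24 libraries, for Adrb1 and Avpr1a (large coloured points) and a selection of the named pathway genes and markers (small points, y axis). The receptors stand at 15.2% and 21.6%, above the glomus cell genes Chga, Dbh and Chgb and below the smooth muscle genes, Fabp4, Adipoq and Tg lie far right of 100%, and Ryr2, at 0 on the right, is not drawn. The macrophage, fibroblast, and skeletal and cardiac muscle markers are not drawn either.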

How the data were processed

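Polyadenylated RNA of single CBs was sequenced by the authors from a stranded library kit, aligned with RNA-STAR and counted with featureCounts. They deposited raw counts per Ensembl gene, without normalization. Versions, genome build, annotation, and the settings for strand and multi-mapping reads, are not given in the sources used here, so reads of overlapping or antisense genes cannot be told apart. Columns were matched to libraries by the codes that the labels hold, and groups are the labelled strain and side. Columns of the authors' comparisons in the study's own table were not used, only its pairs of identifier and symbol (1391 rows read, 1273 identifiers with 1 symbol).

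Tests ran in R 4.3.3 with edgeR 4.0.16, using the robust quasi-likelihood F-test after TMM scaling and Benjamini-Hochberg adjustment at 0.05, on genes whose normalized counts averaged above 10. The strain fit had side as a covariate, the side fit strain, and the fits within a strain none. DESeq2 1.42.0 and limma 3.58.1 (voom, the rat as random effect) served as alternatives, beside other scalings, filters, libraries, blocks and leaving out each rat. Sign-flip and correlation tests over rats were exact and two-sided. The fits were tested on counts simulated with no effect of the rat, so this check does not cover CBs that share a rat. Totals of 9198341 to 13655419 counts per library limit Adrb1 more than Avpr1a. Left and right CBs with one number come from one rat by the labels. Their deviations from the group means had a median correlation of 0.115 over 11 rats (-0.0331 to 0.259). For libraries of different rats the median was -0.0380 (-0.472 to 0.417), a range that holds the whole of the first. Likeness was the correlation of log2 CPM (prior count 2) with strain and side means removed.

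The members and the gene lists were chosen with earlier results of these data known. Named were both receptors, each pathway or marker gene with an identifier, and the 5 named genes most like each receptor. One of the pathway genes is not reported here. Both receptors matched the RefSeq GRCr8 tables by their Entrez numbers, and promoters were read from there.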

Additional observations from a re-analysis of the deposited data

Results flagged for a closer look

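Among the CBs of 1 strain and 1 side, the left CB of SH rat 36 stood above the others for Adrb1. It was at 8.78 CPM, against 5.78 to 6.90 CPM in the other 5 left CBs of SH rats. Its right CB, at 6.32 CPM, was also the highest of the right CBs of SH rats. Without rat 36, the strain difference of Adrb1 was 0.69 on the log2 scale (SE 0.166), against 0.75 with it. Dixon's test at 95% was run on 16 groups of values of the receptors and flagged 1, and chance flags about 1 group in 20. The flagged value, that of the left CB of rat 36, barely passed, with a gap over range of 0.627 against a critical 0.625.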

How the results depend on the processing

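The strain difference of both receptors was positive in the 24 alternatives run, at 0.55 to 0.93 for Adrb1 and 0.49 to 0.69 for Avpr1a on the log2 scale. These alternatives share rats and the contrast that chose the receptors, so nothing is read from their common direction. The count of all genes called between the strains, 2844, became 1490 with all 24 libraries, 1292 in the left CBs alone and 849 in the right CBs alone, and 2212 to 2837 with 1 rat left out. It was 2055 with counts summed per rat and 2300 with the rat as a random effect in voom. Rat numbers 33, 34, 36 and 37 occur in both strains, and the labels do not say what a shared number means across strains. The correlation of deviations between such rats was -0.202 to 0.0530, against -0.0331 to 0.259 between the sides of a rat. These ranges overlap, so they cannot tell whether such rats share more than a number. With that number as a replicate block the count was 1571, and with the same rats and no block, an alternative chosen after seeing the data, 1646. With the rat as a replicate block, 1 gene was called between the sides in SHR, against 0 without it: ENSRNOG00000057880, for which no symbol was paired and which is named after its values were seen, at -0.58 (left minus right, log2, edgeR adjusted p = 0.0260). The block changed no other call between sides. The difference between strains in the side difference of Avpr1a turned to -0.055 without WKY rat 37, with -0.055 to 0.24 over the rats left out, and that of Adrb1 stayed at 0.25 to 0.52. Left minus right over both strains was 0.03 to 0.17 for Adrb1 and 0.05 to 0.18 for Avpr1a with 1 rat left out, and 0.20 and 0.19 with all 24 libraries, outside those ranges. Within SHR it was 0.49 and 0.35 with all 12 libraries, against 0.27 and 0.15. With all 24 libraries, r between the receptors over SH rats turned from -0.175 to 0.559 (exact permutation p = 0.226). With 6 rats per strain and the low counts of Adrb1, small differences between sides could not be detected.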
